A study of Mus musculus with 12 samples.

Results

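The comparison described here set retinal explants of the mouse strain 129 that were kept for 3 days in vitro (3DIV) with the GSK3 inhibitor CHIR99021 against normal 129 retina taken without culture. It used 4 of the 12 arrays of the series, chosen by strain, culture and treatment as the labels give them, 2 from CHIR99021 explants and 2 from normal retina. Both came from the neural retina of male 129X1/SvJJmsSlc mice 10 weeks old, with the lens, iris, ciliary body and pigmented epithelium taken away before RNA was extracted from whole tissue. CHIR99021 was given at 15 µM according to the labels. The 2 arrays of 129 explants kept for 3 days with the DMSO vehicle and no inhibitor served to tell what culture did from what the inhibitor added. According to the methods, control explants received EdU, a label of new DNA, as well as the vehicle. C57BL/6NCrSlc (B6) retina of the same age, with CHIR99021 and normal, gave the strain comparison. The labels name no mutation or transgene for any group. The methods state that 2 retinas were used for each condition, and each label marks its array as a biological replicate.

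Glycogen synthase kinase 3 (GSK3) marks the Wnt effector beta-catenin for destruction, and it also phosphorylates cyclins, Myc, glycogen synthase and the sterol regulator SREBP. CHIR99021 blocks the kinase, so that beta-catenin can reach the nucleus and bind TCF/LEF factors. Isolating and culturing a retina cuts the optic nerve and takes the photoreceptors from their supporting epithelium. Müller glia, the radial glia that span the retina, respond to such injury with gliosis and in some settings re-enter the cell cycle.

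3 log2 differences are used throughout. The net difference is CHIR99021 explants minus normal retina, the culture difference is vehicle explants minus normal retina, and the inhibitor difference is CHIR99021 explants minus vehicle explants, each given ± SE from 1 limma fit to the log2 intensities of all 12 arrays. A probe set was called when its p, adjusted over 45037 probe sets, was under 0.05. Values per array are linear RMA intensities, in the order replicate 1 and replicate 2. Percentages of a culture change undone are shares of the log2 change, and differ from shares of the linear intensities. The net and culture differences share the normal arrays, and the culture and inhibitor differences share the vehicle arrays. In whole tissue, fewer cells of a type and less RNA per cell cannot be told apart.

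The pairs of 129 replicates correlated at 0.9974 in CHIR99021 explants, 0.9978 in vehicle explants and 0.9966 in normal retina across probe sets, and 19, 5 and 85 probe sets differed over 2-fold within the pair. Rod, cone, bipolar, amacrine, ganglion and Müller glial markers were all measured in normal retina, with intensities such as 20282 and 21257 for Sag and 11966 and 11972 for Glul. The summed intensity of 9 lymphocyte genes was 358 and 351 in CHIR99021 explants, 327 and 348 in vehicle explants and 385 and 363 in normal retina, and that of 3 red blood cell genes lay between 43 and 51 in the 129 arrays. Endothelial and mural genes were measured as well, with sums over 20 genes of 6027 and 6224 in CHIR99021 explants, 7388 and 7199 in vehicle explants and 6297 and 6444 in normal retina. Normal replicate 2 stood apart in lens transcripts: the summed intensity of 15 lens genes was 556 and 650 in CHIR99021 explants, 499 and 511 in vehicle explants, and 1425 and 31309 in normal retina. Both normal retinas also held pigmented epithelium transcripts that the explants lacked, among them Rpe65 with 27.3 and 25.2 in CHIR99021 explants and 301 and 911 in normal retina. The lens and epithelial genes among the largest decreases below are therefore given with these values, and their part in other results was not tested. Without normal replicate 2, the net difference was called higher for 7087 and lower for 7809 probe sets, against 8504 and 9574 with it.

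Of 45037 probe sets, 8504 (18.9%) were called higher and 9574 (21.3%) lower in CHIR99021 explants than in normal retina, and 1838 and 1409 of these differed at least 2-fold. Culture with vehicle gave 6640 (14.7%) higher and 7144 (15.9%) lower calls against normal retina. The inhibitor difference was called higher for 2644 (5.87%) and lower for 2873 (6.38%) probe sets. Without any 1 of the 4 explant arrays of 129, the inhibitor calls numbered 921 to 1386 higher and 1210 to 1582 lower. On 1 probe set for each of 18193 genes, 23.8% were called higher and 21.8% lower in the net difference, with a median of 0.00, and 7.28% and 7.86% in the inhibitor difference, with a median of 0.01. These shares are the background for the gene lists below, in which the probe set with the highest mean stands for a gene. Changes are relative to the median of all probe sets, which was −0.02 for the net difference. Centring each array on 10 housekeeping genes moved that median to −0.69 and gave 2139 higher and 39356 lower calls, but the housekeeping genes themselves differed, with B2m at 4330 and 4359 in CHIR99021 explants and 324 and 398 in normal retina, and the inhibitor difference moved little.

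Most of what culture changed was not called as changed again by the inhibitor. Of 13784 probe sets with a culture call, 10628 had no inhibitor call, and 9006 of those were also called the same way in the net difference. The inhibitor was called for the remaining 3156. The inhibitor difference ran against the culture difference for 956 of them, called returns below, and the same way for the 2200 called further moves. Among the 956, 583 (1.29%) had risen in culture and 373 (0.828%) had fallen. No difference from normal retina was detected for 283 of those risen and 264 of those fallen, 255 and 82 were brought back in part, and 45 and 27 went past the normal level. Some that went past ended further from normal than with vehicle, among them Prss56 (culture −2.10, net 5.57) and a Crebrf probe set (culture 0.38, net −1.77). The further moves were 1195 (2.65%) up and 1005 (2.23%) down, with a median inhibitor difference of 0.44 and −0.46 on the log2 scale. Another 890 (1.98%) higher and 1124 (2.5%) lower probe sets had inhibitor and net calls but no culture call. Since the vehicle arrays enter the culture difference with 1 sign and the inhibitor difference with the other, these class counts are a description, and with 1 vehicle array for each difference 240 and 237 of those risen and 109 and 95 of those fallen were called as moving back, depending on which array was used for which. Leaving out any 1 of the 4 explant arrays of 129 left 264 to 332 risen and 130 to 160 fallen probe sets as returns, and 399 to 719 further moves up and 313 to 548 down.

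**Figure D1:**
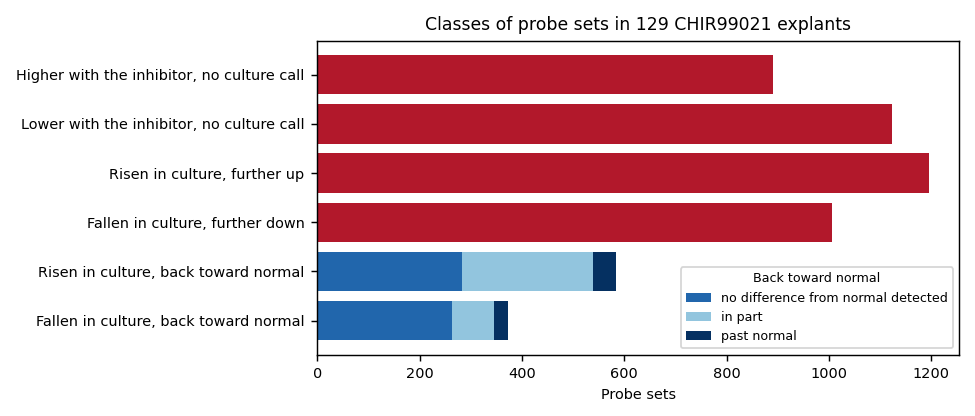
Number of probe sets (x axis) in 6 classes of 129 CHIR99021 explants. The 2 classes labelled back toward normal (returns) are those where the inhibitor difference ran against the culture difference. They are divided by what remained of the culture change, and some of those past normal ended further from it than with vehicle. Further moves (1195 up and 1005 down) outnumbered returns (583 and 373).

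The 12 transcripts that rose most against normal retina were mostly interferon-inducible. Gbp3, a guanylate-binding GTPase, had 2522 and 2425 in CHIR99021 explants, 2876 and 2732 in vehicle explants, and 30.4 and 27.7 in normal retina (net 6.41 ± 0.10, adjusted p = 9.90e-11). Rtp4, Ifit1, Rsad2, Usp18, Oasl2, Ifi202b and Iigp1, all interferon-inducible, were in the top 12 with it, as were the macrophage elastase Mmp12, the transcription factor Egr2, the ribonucleotide reductase subunit Rrm2 and the serine protease Prss56. Apart from Prss56, the explants were high with and without the inhibitor for these genes, and the 2 explant groups overlapped for Ifit1, Usp18, Rtp4 and Egr2.

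Prss56 stood alone among the 12 because it followed the inhibitor and not culture. This gene, which encodes a serine protease made by Müller glia and needed for normal eye growth, had 4695 and 5247 in CHIR99021 explants, 24.3 and 24.5 in vehicle explants, and 111 and 98.4 in normal retina. Culture lowered it 4.27-fold (culture −2.10, adjusted p = 2.41e-07) and the inhibitor raised it 203-fold over vehicle (7.67 ± 0.12, adjusted p = 1.21e-10), which left it 47.6-fold above normal. The explants of B6 with CHIR99021 gave 4676 and 5009, against 70.6 and 74.5 in normal B6 retina.

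Of the 12 genes that fell most, 8 were of the pigmented epithelium, the lens or cones. Ttr, which encodes transthyretin, had 44.2 and 28.1 in CHIR99021 explants and 3072 and 6518 in normal retina, and Cryba1, a lens crystallin, had 17.3 and 20.8 in CHIR99021 explants against 198 and 9856 in normal retina, and both also differed between the normal arrays. Opn1sw, the short-wave cone opsin, was at 86.3 and 122 in CHIR99021 explants and 4647 and 4395 in normal retina, a 44.1-fold decrease (net −5.46 ± 0.33, adjusted p = 2.54e-07). It was as low in vehicle explants (75.5 and 96.4). The other 4 are on none of those lists. Sh2d1a, an adaptor known from lymphocytes, had 22.9 and 21.3 in CHIR99021 explants, 34.4 and 49.8 in vehicle explants and 563 and 486 in normal retina (net −4.57 ± 0.17). Fam107a had 28.7 and 31.8 with CHIR99021, 65.1 and 65.9 with vehicle and 556 and 816 in normal retina (net −4.48 ± 0.21). Both moved further down with the inhibitor, as did Gm11342 (net −4.11 ± 0.36), whose inhibitor call was made in 8 of 12 fits without 1 array, while Glb1l3 (net −4.39 ± 0.26) had no inhibitor call. The other Fam107a probe sets had net differences from −2.90 to −1.07 and inhibitor differences from −0.44 to 0.05.

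**Figure D2:**
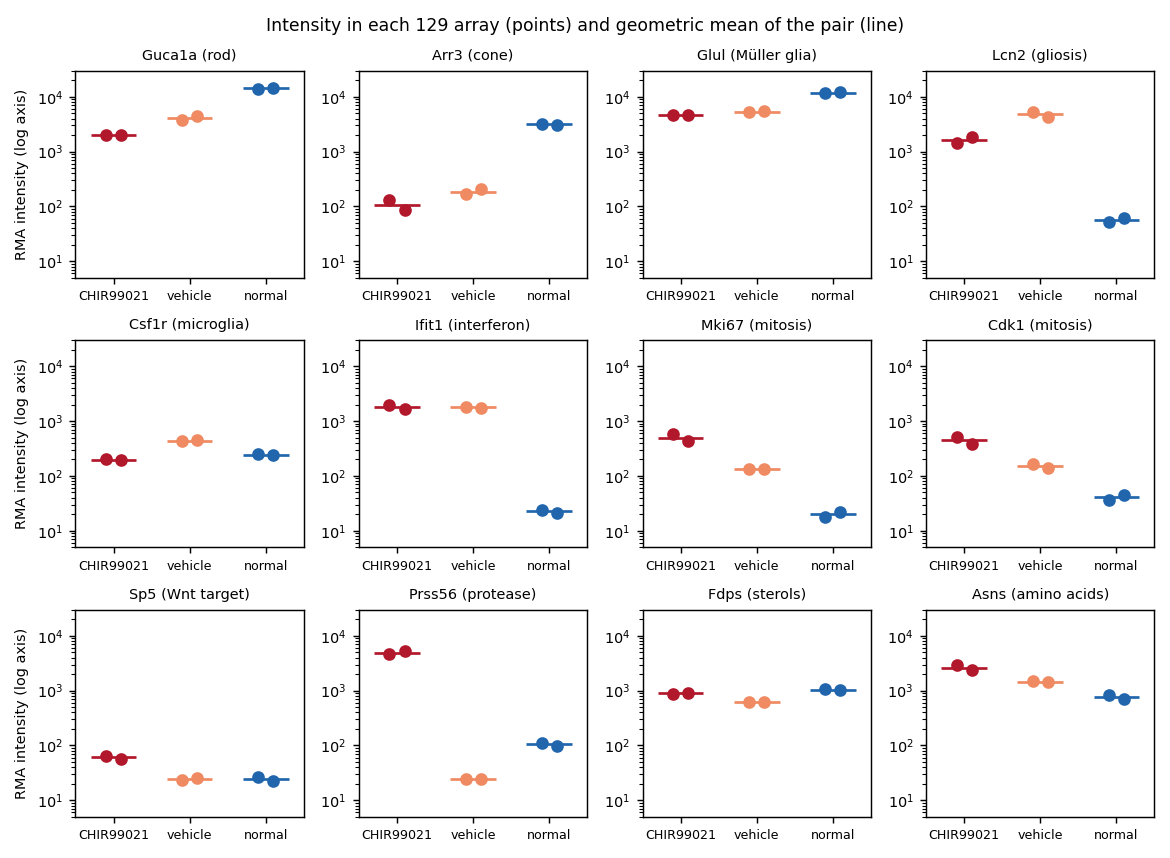
RMA intensity on a log axis of 12 genes in each 129 array, with CHIR99021 explants, vehicle explants and normal retina from left to right, points for arrays and a line for the geometric mean of each pair. Prss56 and Sp5 were high with CHIR99021 alone, Ifit1 was high in both explant groups, and Csf1r with CHIR99021 was below both other groups.

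Photoreceptor transcripts fell in culture and many fell again with the inhibitor. All 23 measured rod genes were called lower in CHIR99021 explants than in normal retina (median −1.79), all 23 had fallen in vehicle explants (−1.35), and 13 had an inhibitor call, each a further decrease. Guca1a, an activator of guanylate cyclase in the recovery from light, had 2018 and 1972 in CHIR99021 explants, 3710 and 4401 in vehicle explants, and 14034 and 14410 in normal retina (net −2.83 ± 0.08, inhibitor −1.02 ± 0.08, adjusted p = 4.65e-05). Nrl, the transcription factor that makes a photoreceptor a rod, had 2746 and 2168 with CHIR99021, 4308 and 4662 with vehicle and 15262 and 13404 in normal retina (net −2.55 ± 0.11, inhibitor −0.88 ± 0.11). The rod arrestin Sag fell less, with 11964 and 12250 in CHIR99021 explants, 15491 and 16820 in vehicle explants and 20282 and 21257 in normal retina (net −0.78 ± 0.07). For all 3 genes the groups did not overlap. The number of rod genes with an inhibitor call was 7 without CHIR99021 replicate 2 and 6 without vehicle replicate 2.

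Of 15 cone genes, 13 were called lower against normal retina (median −1.72) and 5 were lower with the inhibitor than with vehicle. Gnat2, the cone transducin, had 165 and 212 in CHIR99021 explants, 348 and 328 in vehicle explants and 2576 and 2426 in normal retina (net −3.74 ± 0.14, inhibitor −0.85 ± 0.14, adjusted p = 0.00365). The summed intensity of the cone genes was 6275 and 6249 in CHIR99021 explants, 8872 and 9742 in vehicle explants and 33965 and 33777 in normal retina. No photoreceptor gene of either list had an inhibitor difference called upward.

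The inner retina did not move as 1 block. Among 17 bipolar cell genes, 11 were called lower and 2 higher against normal retina, and 9 were lower with the inhibitor. 4 of the 9 also had a net call but no culture call. Gng13, a G-protein subunit of ON bipolar cells, had 1914 and 2098 in CHIR99021 explants, 3486 and 3204 in vehicle explants and 3099 and 3149 in normal retina (net −0.64 ± 0.10, inhibitor −0.74 ± 0.10, adjusted p = 9.16e-04). Its other probe set had a net difference of 0.07 and an inhibitor difference of −0.02. Isl1, a homeobox factor of ON bipolar and ganglion cells, had 1436 and 1667 with CHIR99021, 2423 and 2370 with vehicle and 2309 and 2216 in normal retina (inhibitor −0.63 ± 0.08). In both, the vehicle arrays were the highest. Trpm1, the ON bipolar cation channel, went the other way, with 115 and 145 in CHIR99021 explants, 50.6 and 48.2 in vehicle explants and 58.8 and 57.6 in normal retina (inhibitor 1.38 ± 0.23, adjusted p = 0.00369). In vehicle explants and normal retina this probe set was dim, under the lowest array median of 68.8. The other Trpm1 probe sets had inhibitor differences from 0.08 to 1.22 and net differences from −0.08 to 1.15.

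Ganglion cell genes divided. Of 18, 10 were called lower and 6 higher against normal retina, and with the inhibitor 5 were higher and 1 lower. Nefh, the heavy neurofilament, had 570 and 526 in CHIR99021 explants, 270 and 307 in vehicle explants and 754 and 825 in normal retina. The inhibitor thus undid 63.9% of its log2 fall in culture. Pvalb, a calcium buffer, had 228 and 242 with CHIR99021, 115 and 92.4 with vehicle and 288 and 280 in normal retina, with 81.2% undone. Tubb3, the neuronal beta-tubulin, had 719 and 734 in CHIR99021 explants, 240 and 227 in vehicle explants and 282 and 276 in normal retina, which is above normal with the inhibitor alone (net 1.38 ± 0.09, inhibitor 1.64 ± 0.09, adjusted p = 6.72e-06). The RNA-binding protein Rbpms and synuclein gamma, Sncg, stayed low, with net differences of −1.57 ± 0.10 and −1.47 ± 0.08.

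Synaptic release genes followed culture. Of 24, 23 were called lower against normal retina (median −0.67), 20 had fallen in vehicle explants, and 8 were lower with the inhibitor than with vehicle. Cplx4, the complexin of ribbon synapses, had 1200 and 1021 in CHIR99021 explants, 1560 and 1797 in vehicle explants and 4178 and 3788 in normal retina. Cplx1, the complexin of conventional synapses, was the 1 member the inhibitor raised. It had 1520 and 1599 with CHIR99021, 994 and 963 with vehicle and 1852 and 1902 in normal retina (inhibitor 0.67 ± 0.07, 71.5% of the log2 fall undone).

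Genes of nerve injury and axon growth, by contrast, were raised in culture and raised again. Of 15, 14 were called higher in CHIR99021 explants than in normal retina (median 2.37), the same number in vehicle explants (2.07), and 9 moved further up with the inhibitor. Dclk1, a microtubule-binding kinase, had 2042 and 1980 in CHIR99021 explants, 653 and 671 in vehicle explants and 114 and 136 in normal retina (net 4.02 ± 0.10, inhibitor 1.60 ± 0.10, adjusted p = 8.80e-06). The other Dclk1 probe sets had net differences from −0.71 to 3.61 and inhibitor differences from −0.22 to 1.61. The neuropeptide galanin, Gal, had 2186 and 2061 with CHIR99021, 1228 and 1177 with vehicle and 100 and 105 in normal retina (inhibitor 0.82 ± 0.09). The growth-cone protein Gap43 had 1500 and 1538 with CHIR99021, 1088 and 1016 with vehicle and 293 and 311 in normal retina (inhibitor 0.53 ± 0.07). The cornified-envelope gene Sprr1a, known from injured neurons, was as high with vehicle (1024 and 872) as with CHIR99021 (1029 and 1079), against 32.6 and 32.8 in normal retina. The 9 further increases became 5 without CHIR99021 replicate 2 or vehicle replicate 2.

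Resting Müller glial genes were mixed against normal retina, with 11 of 25 called higher and 10 lower, and none was raised by the inhibitor while 7 were lowered. Glul, glutamine synthetase, fell in culture without an inhibitor call (4646 and 4700 in CHIR99021 explants, 5325 and 5434 in vehicle explants, 11966 and 11972 in normal retina, inhibitor adjusted p = 0.0941). Aqp4, the water channel of glial endfeet, was at 565 and 769 with CHIR99021, 1388 and 1458 with vehicle and 1628 and 1729 in normal retina, so that its decrease came with the inhibitor (−1.11 ± 0.13, adjusted p = 4.97e-04). Abca8a, an ABC transporter, fell with both (305 and 358 with CHIR99021, 803 and 843 with vehicle and 2970 and 2769 in normal retina). Sox9, a transcription factor of Müller nuclei, rose in explants with or without the inhibitor (344 and 324 with CHIR99021, 362 and 325 with vehicle and 159 and 156 in normal retina, net 1.09 ± 0.09).

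Gliosis genes rose in culture, and for 8 of them the inhibitor undid part of the rise. Of 24, 22 were called higher with CHIR99021 than in normal retina and 22 with vehicle (medians 3.10 and 3.09), and 3 were higher with the inhibitor than with vehicle. The summed intensity was 35489 and 36081 in CHIR99021 explants, 46586 and 43653 in vehicle explants and 5060 and 6167 in normal retina. Lcn2, lipocalin 2, had 1423 and 1881 with CHIR99021, 5289 and 4303 with vehicle and 52.2 and 61.7 in normal retina, and remained 28.8-fold above normal after the inhibitor had taken back 24.1% of the log2 change. Steap4, a metalloreductase, had 332 and 371 with CHIR99021, 1447 and 1342 with vehicle and 14.8 and 19.7 in normal retina (inhibitor −1.99 ± 0.18). Il6 was nearer to normal, with 14.3 and 14.3 with CHIR99021, 54.1 and 40.2 with vehicle and 8.08 and 7.54 in normal retina (66.1% undone). Ceruloplasmin, Cp, fell with the inhibitor in its most intense probe set (2727 and 3127 with CHIR99021, 7924 and 6978 with vehicle and 700 and 863 in normal retina). Its other probe sets were lower with the inhibitor as well (differences from −1.86 to −1.08), while their net differences ran from −1.11 to 2.23.

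Other gliosis genes went further up or did not respond. The cytokine Lif had 470 and 401 in CHIR99021 explants, 260 and 234 in vehicle explants and 41.0 and 40.0 in normal retina (inhibitor 0.82 ± 0.10). Gfap, the glial filament gene, had 311 and 385 with CHIR99021, 241 and 263 with vehicle and 44.3 and 56.9 in normal retina, and its inhibitor difference of 0.46 ± 0.18 was not called (adjusted p = 0.121). Nes, the progenitor filament nestin, had 571 and 447 with CHIR99021, 408 and 377 with vehicle and 176 and 178 in normal retina, with an inhibitor difference of 0.37 (adjusted p = 0.0464) that 1 of 12 fits without 1 array still called. The 8 decreases became 5 without CHIR99021 replicate 2 or vehicle replicate 1.

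Microglial genes rose in culture, and the inhibitor moved 15 of them against that rise. Of 39, 29 had risen in vehicle explants and none had fallen. With the inhibitor 16 were lower and 2 higher than with vehicle, and 15 of the 16 had risen in culture. Their summed intensity was 4220 and 4370 in CHIR99021 explants, 6483 and 6274 in vehicle explants and 2787 and 2753 in normal retina. Csf1r, the receptor that microglia need to survive, had 200 and 197 with CHIR99021, 438 and 447 with vehicle and 248 and 237 in normal retina (inhibitor −1.16 ± 0.08, adjusted p = 2.10e-05). Ly86, a partner of the receptor RP105, had 74.6 and 73.1 with CHIR99021, 220 and 212 with vehicle and 91.4 and 91.3 in normal retina. Cathepsin S, Ctss, had 246 and 248 with CHIR99021, 509 and 523 with vehicle and 424 and 415 in normal retina. The inhibitor took these and the fractalkine receptor Cx3cr1 past the normal level, with net differences of −0.29 ± 0.08, −0.31 ± 0.08, −0.77 ± 0.09 and −0.41 ± 0.11 that 10, 11, 12 and 11 of the 12 fits without 1 array still called. Ctss ended further from normal than with vehicle, where its culture difference was 0.30. The other Cx3cr1 probe set had a net difference of −0.03 and an inhibitor difference of 0.01. For Aif1, the microglial marker Iba1, no net difference was detected (15.2 and 13.1 with CHIR99021, 26.0 and 24.5 with vehicle and 15.6 and 13.9 in normal retina, adjusted p = 0.732). C1qa and C1qb, which encode chains of the complement starter C1q, came back in part, with 31.5% and 33.7% undone.

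Other macrophage genes stayed high. Cd68, a lysosomal glycoprotein, had 312 and 290 in CHIR99021 explants, 211 and 196 in vehicle explants and 23.6 and 31.5 in normal retina. Gpnmb, a glycoprotein of macrophages and pigment cells, had 3228 and 3712 with CHIR99021, 572 and 437 with vehicle and 127 and 133 in normal retina, and was the largest of the further increases (inhibitor 2.79 ± 0.12, adjusted p = 9.56e-07). In the net difference 22 of the 39 genes were thus called higher and 6 lower, with a median of 0.36 that is −0.31 after centring on housekeeping genes.

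Most interferon-inducible genes rose in culture and had no inhibitor call. Of 39, 36 were called higher in CHIR99021 explants than in normal retina (median 3.53) and 36 in vehicle explants (3.57), with 3 higher and 4 lower by the inhibitor. Ifit1, which binds viral RNA, had 1933 and 1651 with CHIR99021, 1845 and 1723 with vehicle and 24.3 and 21.0 in normal retina (inhibitor 0.00 ± 0.11, adjusted p = 0.99). The summed intensity of the list was 34159 and 32159 with CHIR99021, 38045 and 35683 with vehicle and 2224 and 2247 in normal retina.

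**Figure D3:**
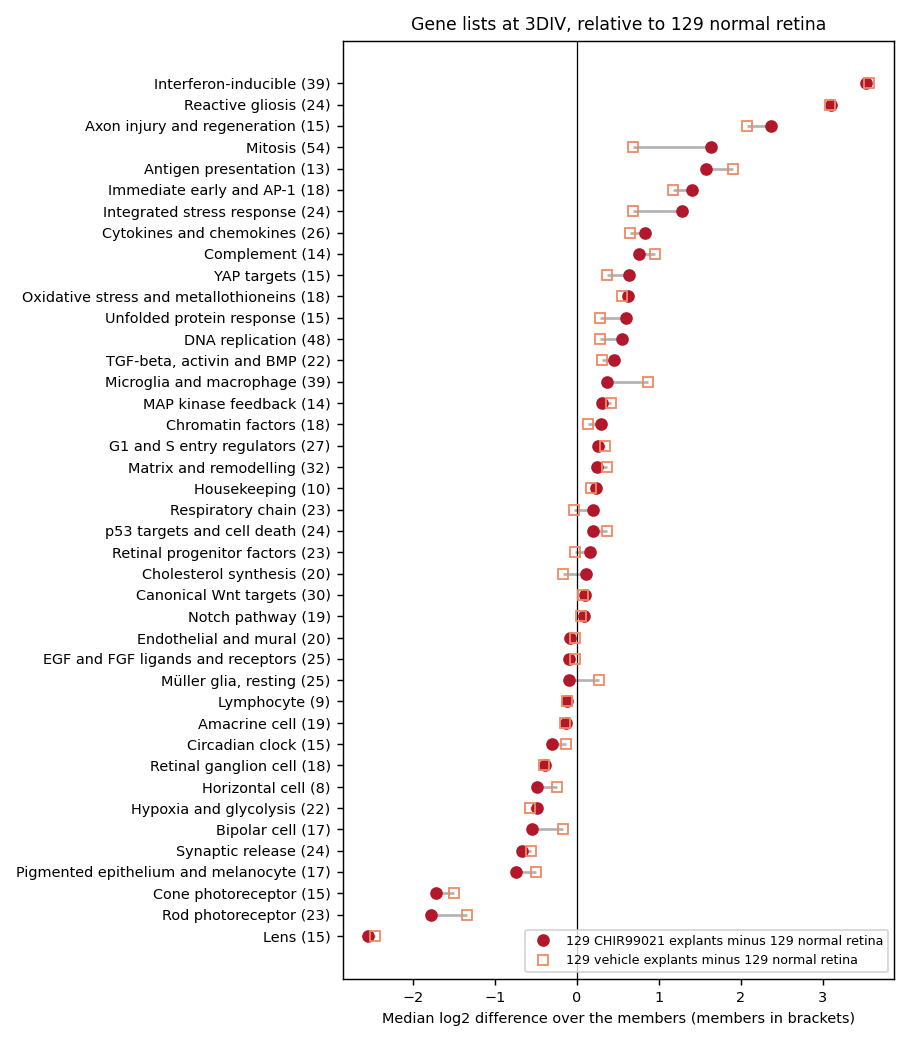
Median log2 difference from 129 normal retina (x axis) over the measured members of each gene list with at least 8 members, with filled circles for CHIR99021 explants and open squares for vehicle explants. Mitosis has the longest step up from square to circle, and the microglial and rod lists have steps down.

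Mitosis genes had the highest median inhibitor difference of the 42 lists. Of 54, 49 were called higher and 1 lower in CHIR99021 explants than in normal retina (median 1.63), 33 were higher in vehicle explants (0.68), and 46 were higher and 1 lower with the inhibitor than with vehicle (1.14). 32 moved further up, and 13 were raised by the inhibitor without a culture call. Mki67, the proliferation antigen Ki67, had 578 and 436 in CHIR99021 explants, 131 and 133 in vehicle explants and 17.8 and 22.2 in normal retina, a 25.3-fold net increase (4.66 ± 0.14, adjusted p = 2.69e-09). Cdk1, the kinase that drives entry into mitosis, had 515 and 383 with CHIR99021, 162 and 137 with vehicle and 36.9 and 45.1 in normal retina (inhibitor 1.58 ± 0.17, adjusted p = 3.12e-04). Ccnb2, a cyclin partner of that kinase, had 208 and 191 with CHIR99021, 63.5 and 66.3 with vehicle and 35.4 and 38.1 in normal retina (inhibitor 1.62 ± 0.11). The mitotic kinases Plk1 (115 and 121 with CHIR99021, 59.5 and 55.3 with vehicle and 53.8 and 48.4 in normal retina) and Aurka (184 and 173 with CHIR99021, 88.0 and 76.2 with vehicle and 90.4 and 87.9 in normal retina) were near normal with vehicle and higher with the inhibitor alone. CHIR99021 replicate 1 was the higher of the pair for Mki67, Cdk1, Ccnb2 and Aurka, and the CHIR99021 arrays lay above all vehicle and normal arrays for all 5. The vehicle and normal arrays overlapped for Aurka, whose other probe set had a net difference of −0.03 and an inhibitor difference of 0.14. The 1 member lower than normal was the centrosome kinase Nek2 (net −0.96), whose other probe sets ranged from −0.84 to 1.40.

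The promoters of Mki67, Cdk1 and Ccnb2 are shown because 2 short motifs known from mitotic genes recur in this list, the cell cycle genes homology region (CHR, TTTGAA) and the CCAAT box (CCAAT), both searched on both strands. They are RefSeq windows of build GRCm38.p6 from 250 bases before to 50 after the start, with the matches in capitals, on the minus strand of chr7:135716330-135716629, chr10:69352863-69353162 and chr9:70421505-70421804.
Mki67: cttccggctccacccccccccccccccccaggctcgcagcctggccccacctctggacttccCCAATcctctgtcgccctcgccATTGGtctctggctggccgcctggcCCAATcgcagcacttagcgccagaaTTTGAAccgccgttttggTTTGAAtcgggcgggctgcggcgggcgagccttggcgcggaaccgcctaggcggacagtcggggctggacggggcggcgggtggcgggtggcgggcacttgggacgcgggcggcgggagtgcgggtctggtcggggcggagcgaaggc
Cdk1: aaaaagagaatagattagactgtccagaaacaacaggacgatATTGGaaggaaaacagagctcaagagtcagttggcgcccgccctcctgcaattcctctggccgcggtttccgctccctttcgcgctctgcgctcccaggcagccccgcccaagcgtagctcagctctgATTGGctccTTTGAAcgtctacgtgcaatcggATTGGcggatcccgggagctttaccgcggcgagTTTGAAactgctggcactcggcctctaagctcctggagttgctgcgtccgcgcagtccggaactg
Ccnb2: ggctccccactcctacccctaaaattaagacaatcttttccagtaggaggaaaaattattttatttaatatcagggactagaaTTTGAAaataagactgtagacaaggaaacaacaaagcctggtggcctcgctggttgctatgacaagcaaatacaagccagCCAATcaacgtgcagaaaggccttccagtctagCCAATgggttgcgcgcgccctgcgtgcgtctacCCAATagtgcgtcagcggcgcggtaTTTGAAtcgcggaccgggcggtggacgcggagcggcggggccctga
Each window holds 2 CHR and 3 CCAAT matches. Of the 54 mitosis genes, 44 had a window, and 31 of these (70.5%) held the CHR letters and 33 (75%) the CCAAT box, whereas 18.1% and 37.8% of all 27025 windows did. In the DNA replication list the CHR letters were in 4 of 39 windows (10.3%) and the CCAAT box in 23 (59%). The CCAAT box was frequent in other lists too, with 93.8% of cholesterol synthesis and 72.7% of axon injury windows. Wnt targets had it in 58.8%, the integrated stress response in 52.4% and gliosis genes in 31.8%. The CHR letters were in 5.88% (Wnt targets) to 18.2% (axon injury) of the windows of these lists. A match is a description of the letters and not a bound site.

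DNA replication genes rose in culture with a smaller inhibitor step. Of 48, 37 were called higher and none lower against normal retina (median 0.55, or −0.12 after centring on housekeeping genes), 27 were higher in vehicle explants (0.28), and 20 were higher and 1 lower with the inhibitor (0.32). The inhibitor count was 5 without CHIR99021 replicate 1, 8 without vehicle replicate 1 and 10 without vehicle replicate 2. Rrm2, the regulated subunit of ribonucleotide reductase, had 669 and 506 in CHIR99021 explants, 204 and 212 in vehicle explants and 10.1 and 12.9 in normal retina (net 5.67 ± 0.18, inhibitor 1.48 ± 0.18, adjusted p = 5.04e-04). Uhrf1, which carries DNA methylation through replication, had 247 and 183 with CHIR99021, 103 and 120 with vehicle and 9.19 and 12.5 in normal retina. Pcna, the sliding clamp, had 4248 and 3645 with CHIR99021, 3041 and 3218 with vehicle and 1912 and 2031 in normal retina, with an inhibitor difference of 0.33 that was not called (adjusted p = 0.0502).

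Regulators of G1 did not follow the mitosis genes. Ccnd1, cyclin D1, had 1815 and 1583 in CHIR99021 explants, 1567 and 1790 in vehicle explants and 242 and 264 in normal retina, so that the explant groups overlapped (inhibitor 0.02 ± 0.13, adjusted p = 0.954). Myc likewise had 236 and 176 with CHIR99021, 245 and 201 with vehicle and 55.1 and 48.6 in normal retina. Ccnd3, cyclin D3, rose in culture and was back at normal with the inhibitor in 1 of its 3 probe sets (308 and 319 with CHIR99021, 507 and 448 with vehicle and 290 and 308 in normal retina), with no net difference detected. The other Ccnd3 probe sets moved less with the inhibitor (−0.14 and −0.12), with net differences from −0.21 to −0.16. The cell cycle inhibitor Cdkn1c fell in culture and fell again (104 and 92.2 with CHIR99021, 179 and 177 with vehicle and 302 and 309 in normal retina, inhibitor −0.87 ± 0.10), while Cdkn1a, p21, rose in culture (590 and 557 with CHIR99021, 487 and 483 with vehicle and 79.6 and 109 in normal retina) without an inhibitor call.

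**Figure D4:**
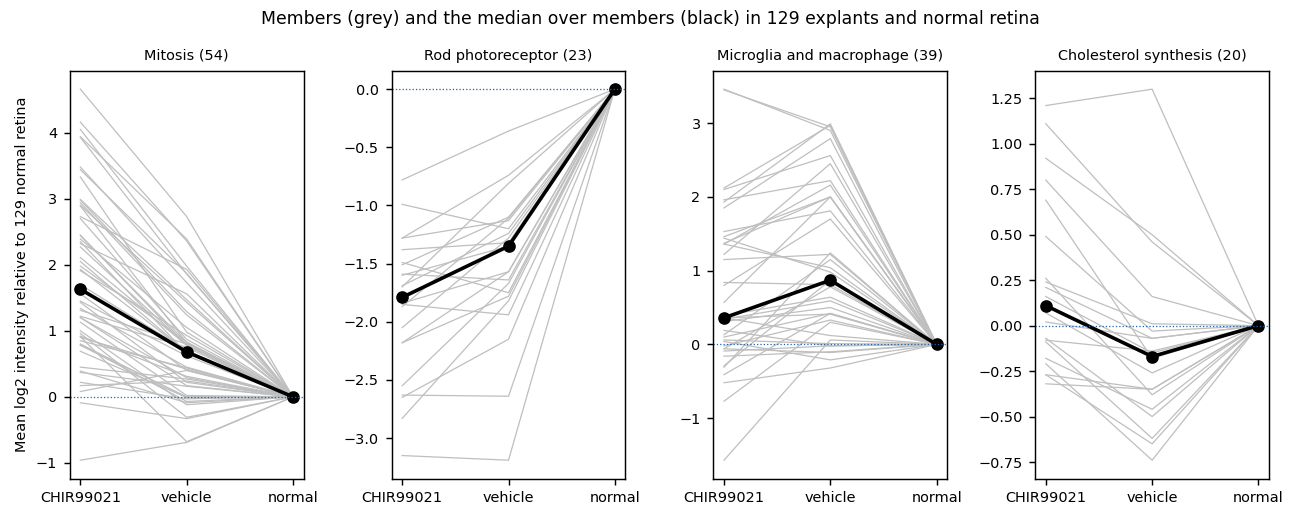
Mean log2 intensity relative to 129 normal retina (y axis, a separate scale in each panel) for the members of 4 gene lists in CHIR99021 explants, vehicle explants and normal retina, with members in grey and the median over members in black. The mitosis and rod medians with CHIR99021 (1.63 and −1.79) lie beyond those with vehicle (0.68 and −1.35), and the microglial and cholesterol medians (0.36 and 0.11) lie closer to 0 than with vehicle (0.87 and −0.17), with the deposited scaling.

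Canonical Wnt targets responded gene by gene. Of 30, 5 were called higher and none lower with the inhibitor, and the list median of the inhibitor difference was −0.02. Sp5, a zinc finger target of beta-catenin, had 64.1 and 56.9 in CHIR99021 explants, 23.7 and 25.9 in vehicle explants and 26.7 and 22.5 in normal retina (inhibitor 1.29 ± 0.12, adjusted p = 8.08e-05). Nkd1, a feedback inhibitor of the pathway, fell in culture and went past normal with the inhibitor (487 and 521 with CHIR99021, 209 and 175 with vehicle and 348 and 331 in normal retina). The feedback scaffold Axin2 fell slightly in culture and no net difference was detected with the inhibitor (229 and 248 with CHIR99021, 170 and 178 with vehicle and 212 and 223 in normal retina, net 0.13, adjusted p = 0.289). Lef1, a target that encodes a partner of beta-catenin, had 54.9 and 54.8 with CHIR99021, 45.2 and 44.1 with vehicle and 56.6 and 53.2 in normal retina, and its inhibitor difference of 0.30 was not called (adjusted p = 0.127). Frat2, which encodes a protein that binds GSK3, was lowered by the inhibitor alone (64.3 and 74.7 with CHIR99021, 211 and 225 with vehicle and 229 and 226 in normal retina, inhibitor −1.65 ± 0.10).

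The promoter of Sp5 is shown for the TCF/LEF letters CTTTGAT, in capitals, on the plus strand of chr2:70474673-70474972 of GRCm38.p6.
Sp5: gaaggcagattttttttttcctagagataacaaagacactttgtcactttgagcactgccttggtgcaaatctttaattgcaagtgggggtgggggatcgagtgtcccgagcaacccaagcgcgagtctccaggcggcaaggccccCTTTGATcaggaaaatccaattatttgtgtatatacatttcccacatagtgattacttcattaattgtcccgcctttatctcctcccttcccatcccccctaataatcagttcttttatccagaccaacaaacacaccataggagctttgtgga
The window holds 1 match. These letters were in 2 of 17 windows (11.8%) of the Wnt list and in 3.7% of all windows. They share the run TTTGA with the CHR but cannot match the same bases.

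Genes of the integrated stress response, in which the factor ATF4 raises amino acid supply, moved further from normal. Of 24, 20 were called higher and 2 lower against normal retina (median 1.28), 15 were higher in vehicle explants (0.68), and 15 were higher and none lower with the inhibitor (0.65). Asns, asparagine synthetase, had 2895 and 2408 in CHIR99021 explants, 1484 and 1445 in vehicle explants and 831 and 706 in normal retina (net 1.78 ± 0.10, inhibitor 0.85 ± 0.10, adjusted p = 4.97e-04). Chac1, which degrades glutathione, had 536 and 427 with CHIR99021, 228 and 217 with vehicle and 44.0 and 53.5 in normal retina (net 3.30 ± 0.12, inhibitor 1.10 ± 0.12). Psat1, of serine synthesis, had 1461 and 1436 with CHIR99021, 844 and 830 with vehicle and 507 and 506 in normal retina. The groups kept the same order in all 3 and did not overlap.

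The promoters of Asns and Chac1 are shown for the composite letters TGATGNAA of ATF4 with C/EBP, searched on both strands and in capitals, on the minus strand of chr6:7693160-7693459 and the plus strand of chr2:119350992-119351291.
Asns: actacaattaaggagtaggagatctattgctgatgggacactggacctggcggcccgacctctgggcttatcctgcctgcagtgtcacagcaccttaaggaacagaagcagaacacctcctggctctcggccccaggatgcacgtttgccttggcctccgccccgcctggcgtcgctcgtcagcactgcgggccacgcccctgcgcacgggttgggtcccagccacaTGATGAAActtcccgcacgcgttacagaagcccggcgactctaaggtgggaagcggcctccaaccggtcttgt
Chac1: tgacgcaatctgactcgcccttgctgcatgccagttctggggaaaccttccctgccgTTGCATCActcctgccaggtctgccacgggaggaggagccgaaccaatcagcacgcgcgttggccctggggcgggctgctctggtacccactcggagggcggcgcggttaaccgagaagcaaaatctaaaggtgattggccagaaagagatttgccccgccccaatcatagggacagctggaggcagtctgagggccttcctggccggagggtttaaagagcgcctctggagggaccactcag
Each window holds 1 match, in Chac1 on the other strand. The letters were in 7 of 21 windows (33.3%) of the list and in 4.07% of all windows.

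The unfolded protein response, which adds folding capacity to the endoplasmic reticulum, went the same way. Of 15 genes, 12 were called higher against normal retina (median 0.60, or −0.07 after centring on housekeeping genes) and 11 higher with the inhibitor (0.41), or 7 without either vehicle array. Hspa5, the chaperone BiP, had 6550 and 6620 in CHIR99021 explants, 4683 and 4714 in vehicle explants and 3235 and 3163 in normal retina, and its helper Sdf2l1 had 449 and 515 with CHIR99021, 228 and 241 with vehicle and 144 and 142 in normal retina (inhibitor 1.04 ± 0.08, adjusted p = 4.19e-05).

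Cholesterol synthesis was the list that the inhibitor brought back from below. Of 20 genes, 9 had fallen and 3 risen in vehicle explants (median −0.17), 13 were higher and none lower with the inhibitor than with vehicle (0.35), and 7 were called higher and 3 lower against normal retina (0.11, or −0.56 after centring on housekeeping genes). 7 of the 9 that had fallen moved back, and for 5 of these no net difference was detected. Fdps, farnesyl diphosphate synthase, had 880 and 911 with CHIR99021, 627 and 616 with vehicle and 1052 and 1025 in normal retina (71.1% undone). Lss, lanosterol synthase, had 348 and 350 with CHIR99021, 246 and 237 with vehicle and 376 and 369 in normal retina (85.3%). The other probe set of Fdps had an inhibitor difference of −0.14, and those of Lss ranged from −0.05 to 0.46. Idi1, an isomerase earlier in the pathway, went past normal (911 and 892 with CHIR99021, 552 and 608 with vehicle and 775 and 730 in normal retina, net 0.26 ± 0.08), and Sqle, squalene epoxidase, was raised by the inhibitor alone (727 and 797 with CHIR99021, 512 and 550 with vehicle and 536 and 548 in normal retina). The inhibitor count was 6 to 8 without any 1 of the 4 explant arrays of 129.

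Respiratory chain genes had no common culture change (3 of 23 higher and 3 lower), and 12 were higher with the inhibitor (median 0.24) and 12 against normal retina (0.20, or −0.47 after centring on housekeeping genes). Cyc1, of complex III, had 2468 and 2488 in CHIR99021 explants, 1952 and 1905 in vehicle explants and 2035 and 1928 in normal retina. The steps were small, and 2 to 6 members had an inhibitor call when any 1 of the 4 explant arrays of 129 was left out. Glycolysis and hypoxia genes fell in culture (19 of 22) and 16 stayed lower against normal retina (−0.49), among them hexokinase 2, Hk2 (948 and 850 with CHIR99021, 915 and 1016 with vehicle and 2836 and 3295 in normal retina). The angiogenic factor Vegfa was an exception, with 690 and 763 with CHIR99021, 443 and 481 with vehicle and 938 and 987 in normal retina (61.6% of its log2 fall undone).

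Beyond the lists, 3 genes among the largest returns lost most of their rise with the inhibitor. Arg1, arginase 1, had 21.3 and 28.8 in CHIR99021 explants, 221 and 149 in vehicle explants and 17.1 and 11.4 in normal retina (inhibitor −2.87 ± 0.37, net adjusted p = 0.103). Chil1, a chitinase-like protein, had 338 and 443 with CHIR99021, 2646 and 1948 with vehicle and 194 and 197 in normal retina (72.2% undone), and Ch25h, cholesterol 25-hydroxylase, had 45.4 and 56.3 with CHIR99021, 175 and 150 with vehicle and 41.1 and 53.5 in normal retina (93.9%). For Arg1 and Ch25h no difference from normal was detected. A probe set each of Deptor, an inhibitor of mTOR, and Crebrf, a regulator of the factor CREB3, rose little in culture and fell far below normal with the inhibitor. That of Crebrf had 163 and 177 with CHIR99021, 708 and 797 with vehicle and 586 and 570 in normal retina (inhibitor −2.15 ± 0.09). That of Deptor, which has 6, had 23.8 and 24.6 with CHIR99021, 129 and 120 with vehicle and 96.1 and 98.2 in normal retina. The other Deptor probe sets had net differences from −1.87 to −0.02 and inhibitor differences from −2.10 to −0.01. Some of these had no culture call.

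The largest further decreases held Pcmtd2 (554 and 597 with CHIR99021, 1530 and 1924 with vehicle and 5640 and 5227 in normal retina, inhibitor −1.58 ± 0.13), the collagen gene Col19a1 (48.1 and 59.0 with CHIR99021, 188 and 209 with vehicle and 472 and 424 in normal retina) and Nap1l5, of a nucleosome assembly family (1041 and 1112 with CHIR99021, 3296 and 3303 with vehicle and 4917 and 4654 in normal retina). Besides Gpnmb, the largest further increases were mostly mitosis genes, with Il6ra, the receptor subunit for interleukin 6 (208 and 241 with CHIR99021, 48.8 and 41.2 with vehicle and 33.4 and 28.0 in normal retina, inhibitor 2.32 ± 0.11) and the cytochrome Cyp1b1 (284 and 225 with CHIR99021, 65.9 and 60.5 with vehicle and 16.3 and 18.8 in normal retina). The other Il6ra probe set had a net difference of 0.24 and an inhibitor difference of 0.16. The other Cyp1b1 probe sets had inhibitor differences from 0.20 to 1.73. Of genes with no culture call, the inhibitor raised Calcb, a calcitonin gene-related peptide, most (380 and 289 with CHIR99021, 15.1 and 17.4 with vehicle and 19.0 and 17.7 in normal retina, inhibitor 4.35 ± 0.14, adjusted p = 1.68e-07). Hbp1, a repressor known to restrain Wnt signaling and the cell cycle, was among those it lowered most in 1 of its 4 probe sets, 4.15-fold below vehicle (171 and 176 with CHIR99021, 706 and 735 with vehicle and 687 and 700 in normal retina). The other Hbp1 probe sets had inhibitor differences from −1.24 to −0.14. 1 of these had no inhibitor call (396 and 410 with CHIR99021, 434 and 456 with vehicle, limma adjusted p = 0.291).

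Among genes that the study followed, Lgals3, galectin 3, stayed high in both explant groups (3694 and 4036 with CHIR99021, 3500 and 3066 with vehicle and 239 and 209 in normal retina). Edn2, endothelin 2, had 1164 and 1019 in CHIR99021 explants, 1405 and 1593 in vehicle explants and 36.9 and 48.8 in normal retina (inhibitor adjusted p = 0.0611). Hmga2, a chromatin protein of stem cells, had 1113 and 680 with CHIR99021, 543 and 627 with vehicle and 42.5 and 49.1 in normal retina, the CHIR99021 pair lying further apart than the other 129 pairs (inhibitor 0.58 ± 0.21, adjusted p = 0.107). Mbd1, which binds methylated DNA, was lowered by the inhibitor alone (559 and 594 with CHIR99021, 775 and 774 with vehicle and 783 and 703 in normal retina, net −0.36 ± 0.08). For Pax6, a progenitor and amacrine factor, neither difference was called (2071 and 2443 with CHIR99021, 2326 and 2372 with vehicle and 2442 and 2520 in normal retina, net adjusted p = 0.238). Outside these genes, Neurog2, a neurogenic factor of the progenitor list, rose and rose again (359 and 367 with CHIR99021, 227 and 209 with vehicle and 86.0 and 84.9 in normal retina, inhibitor 0.74 ± 0.09).

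The change from normal retina to CHIR99021 explants was then set against the same change in B6. Over all probe sets, 776 (1.72%) changed more upward in 129 and 697 (1.55%) less, by the interaction in the same fit. These calls numbered 319 higher and 289 lower without 129 CHIR99021 replicate 1, 389 and 383 without B6 CHIR99021 replicate 1, 478 and 456 without its replicate 2, 459 and 409 without 129 normal replicate 1, and 462 and 412 without B6 normal replicate 1, and the lower calls numbered 423 without 129 normal replicate 2. Among proliferation genes, 40 of 54 mitosis genes and 22 of 48 DNA replication genes had a larger change in 129, and none a smaller one. Mki67 had 578 and 436 with CHIR99021 against 17.8 and 22.2 in normal 129 retina, and 122 and 118 with CHIR99021 against 23.6 and 21.3 in normal B6 retina (interaction 2.24, adjusted p = 2.98e-04). The summed intensity of the mitosis genes was 16062 and 13648 with CHIR99021 against 6527 and 6393 in normal 129 retina, and 10619 and 10805 with CHIR99021 against 12267 and 11883 in normal B6 retina. The B6 sums include Spc25, of the kinetochore, which had 42.3 and 50.9 in normal 129 retina and 2327 and 2759 in normal B6 retina, and its other probe set had a net difference of −0.20. Hmga2 had a net change of 4.25 in 129 and 0.70 in B6 (interaction 3.55, adjusted p = 2.00e-04).

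The rod decrease, by contrast, was called as different between strains for 1 of 23 genes, and no cone, synaptic, cholesterol, respiratory chain or glycolysis gene was called, which does not show that the changes were equal. Interferon-inducible genes differed both ways, 10 larger and 4 smaller in 129. Ifi202b, a DNA sensor, had 790 and 782 with CHIR99021 against 14.1 and 12.6 in normal 129 retina, and 15.7 and 20.8 with CHIR99021 against 13.5 and 14.0 in normal B6 retina (interaction 5.48, adjusted p = 4.95e-07). Nox4, an NADPH oxidase, had 10.3 and 12.0 with CHIR99021 against 9.79 and 9.80 in normal 129 retina, but 104 and 83.2 with CHIR99021 against 10.0 and 8.71 in normal B6 retina (interaction −3.13, adjusted p = 1.89e-05). The chemokine gene Cxcl5 had 19.7 and 26.9 with CHIR99021 against 11.2 and 11.9 in normal 129 retina, and 124 and 127 with CHIR99021 against 8.13 and 9.61 in normal B6 retina (interaction −2.83).

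**Figure D5:**
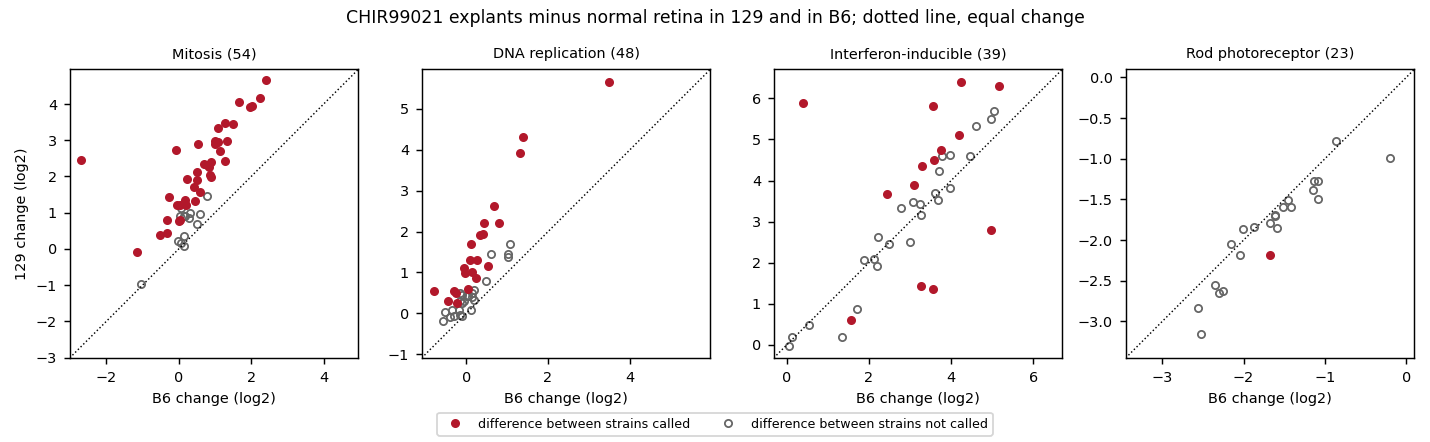
Log2 change of CHIR99021 explants from normal retina in 129 (y axis) against that in B6 (x axis) for the members of 4 gene lists, filled where the difference between strains was called and open where it was not. Mitosis and DNA replication genes lie mostly above the dotted line of equal change, 40 and 22 of them called, and rod genes lie near it with 1 called.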

How the data were processed

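Affymetrix Mouse Genome 430 2.0 arrays, 2 for each of 6 groups named by the labels, measured RNA of the neural retina. The authors ran RMA (version not given in the sources used here), which gave the linear intensities deposited, with array medians between 68.8 and 70.7. The labels give 15 µM CHIR99021, whereas the methods allow a higher dose for explants as well, and the methods name TRIZOL with a column where the labels name RNeasy. Intensities were taken to log2 and 64 of 45101 probe sets, controls, were left out, with no filter on signal. The platform annotation gave 1 gene symbol to 34945 probe sets and several to 932.

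In limma (version 3.58.1, R 4.3.3), 6 group means were fitted over the 12 arrays. Without trend or robust options, eBayes added 4.69 prior to 6 residual degrees of freedom, and Benjamini-Hochberg adjustment was applied to each comparison over its 45037 probe sets. The fit was tested on simulated data. Of 978 entries in 42 gene lists, 68 had no probe set of that symbol alone. The comparison, the lists and the genes named (the 12 largest net changes each way, the 12 largest inhibitor differences in each class, up to 4 members a list with those a description turns on, genes of the study and the largest strain differences) were chosen with earlier results of these data known. Alternatives were a replicate block, fewer arrays, a filter on level, other scalings, a trended and robust fit, separate vehicle arrays, a 2-fold limit, another probe set per gene and leaving out each array, where the lone array of a group is assumed to vary like the other groups. Promoter windows were RefSeq's for GRCm38.p6.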

Additional observations from a re-analysis of the deposited data

Results flagged for a closer look

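For 31 genes named above, the change between CHIR99021 explants and normal retina differed between strains by the interaction (129 change minus B6 change, log2, limma, 2 arrays a group). These values come from the fit that gave the other results and are listed without an explanation. Changes were higher in 129 for the proliferation genes Spc25 (5.16), Uhrf1 (2.92), Mki67 (2.24), Rrm2 (2.19), Cdk1 (1.93), Ccnb2 (1.15), Plk1 (0.99) and Pcna (0.84). The regulators Ccnd1 (1.18), Myc (1.13), Hmga2 (3.55), Nes (1.03), the Wnt target Sp5 (0.75) and the folding gene Sdf2l1 (0.86) were also higher in 129. So were the interferon-inducible genes Ifi202b (5.48), Oasl2 (2.25), Gbp3 (2.16), Rtp4 (1.25) and Ifit1 (1.14), with B2m (0.93), the peptide gene Calcb (2.31) and Edn2 (2.15). Changes were lower in 129 for Nox4 (−3.13), Cxcl5 (−2.83), Aqp4 (−1.62), Lgals3 (−1.60), Ch25h (−1.39), Ly86 (−0.90), 1 probe set of Cp (−0.88), Mbd1 (−0.75) and Ccnd3 (−0.72). Normal arrays of the strains did not overlap for several of these genes. Spc25 had 42.3 and 50.9 in normal 129 retina and 2327 and 2759 in normal B6 retina. B2m had 324 and 398 in normal 129 retina and 953 and 669 in normal B6 retina. Edn2 had 36.9 and 48.8 in normal 129 retina and 348 and 280 in normal B6 retina, and Lgals3 had 239 and 209 in normal 129 retina and 61.8 and 55.2 in normal B6 retina.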

How the results depend on the processing

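With 2 arrays a group, the number of arrays limits the precision, and dim probe sets have little signal over background. Most gene counts and named genes kept their side of the limit: of 4737 values for named genes under the alternatives, 4610 had the same direction and call. Without 1 array, the inhibitor calls ranged from 921 to 2791 higher and from 1210 to 3008 lower, and the strain calls from 319 to 830 higher and from 289 to 796 lower, with the lowest inhibitor counts without vehicle replicate 2 and the lowest strain counts without 129 CHIR99021 replicate 1. Over the same fits, returns of risen probe sets ranged from 264 to 624 and of fallen ones from 130 to 386, further moves from 399 to 1272 up and from 313 to 1079 down, and inhibitor-only calls from 370 to 933 higher and from 541 to 1147 lower. Members with an inhibitor call ranged from 6 to 14 for rods, 5 to 9 for gliosis, 5 to 22 for DNA replication, 6 to 13 for cholesterol synthesis, 7 to 11 for the unfolded protein response, 2 to 11 for the respiratory chain and 5 to 10 for axon injury. Lens genes called lower ranged from 5 to 13, were 3 with the 4 compared arrays alone, 5 with the 129 arrays alone, 3 among probe sets over the median level and 3 when eBayes was trended and robust. That setting called 1329 higher and 1111 lower between strains. Above the median level, 20 mitosis genes had a net call and 19 an inhibitor call, with fewer probe sets tested. A 2-fold limit in both differences left 47 and 4 returns, 51 and 19 further moves and 102 and 83 inhibitor-only probe sets, in the order up and down in culture or with the inhibitor. With separate vehicle arrays the same 6 counts were 240, 109, 585, 511, 429 and 651 in 1 arrangement and 237, 95, 403, 326, 368 and 583 in the other.

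Centring on the housekeeping genes, which shifts every net and culture difference down by construction, gave 2139 higher and 39356 lower net calls, 1482 and 40681 culture calls, 424 and 4065 strain calls, and class counts of 214 and 1579 returns, 305 and 2044 further moves and 445 and 156 inhibitor-only probe sets. Net calls upward then numbered 19 for DNA replication, 10 for immediate early genes, 4 for the unfolded protein response and 1 for the respiratory chain, and all 15 lens genes were lower. The net differences of Axin2 (−0.54), Ccnd3 (−0.60), Ch25h (−0.56), Cyc1 (−0.35), Idi1 (−0.41), Nkd1 (−0.10), Nox4 (−0.49) and Sqle (−0.18) turned negative. The replicate numbers did not pair the arrays (correlations of −0.11 to 0.04 over 15 pairs of groups), and the fit with the replicate block gave 8366 higher and 9344 lower net calls and 2409 higher and 2657 lower inhibitor calls.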

Other observations

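Of 15 circadian clock genes, 9 were called lower and 1 higher in CHIR99021 explants than in normal retina. With the inhibitor 6 were lower than with vehicle, none was higher and 9 had no call (median −0.14). Dbp, a clock output factor, had 2577 and 2825 in CHIR99021 explants, 3987 and 4128 in vehicle explants and 4717 and 4818 in normal retina (inhibitor −0.59 ± 0.07, adjusted p = 7.36e-04). Per3, a period gene, had 443 and 483 with CHIR99021, 636 and 656 with vehicle and 813 and 815 in normal retina. The other Per3 probe sets had net differences from −0.61 to −0.13 and inhibitor differences from −0.61 to 0.24. Nr1d2, a repressor of the clock, had 2780 and 2820 with CHIR99021, 3987 and 4488 with vehicle and 4478 and 4540 in normal retina. The other Nr1d2 probe set had a net difference of −0.04 and an inhibitor difference of −0.20. The hour at which the retinas were taken was not known here, and its part was not tested.

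Of 15 YAP targets, 6 were lower and 2 higher with the inhibitor, while 9 were called higher and 2 lower against normal retina. Ccn2, a matricellular target, had 59.0 and 90.1 with CHIR99021, 218 and 216 with vehicle and 261 and 418 in normal retina (inhibitor −1.57 ± 0.22). Lats2, a kinase that restrains YAP, had 284 and 289 with CHIR99021, 394 and 394 with vehicle and 626 and 628 in normal retina. The other Lats2 probe sets had net differences from −1.23 to 0.28 and inhibitor differences from −0.59 to 0.19. Among 14 genes of MAP kinase feedback, 2 were lower with the inhibitor and 12 had no call (median −0.05), beside 7.86% of all genes called lower. The phosphatase Dusp6, 1 of the 2, had 421 and 476 with CHIR99021, 750 and 788 with vehicle and 221 and 257 in normal retina (46.2% of the log2 rise undone). Tgfb2, a TGF-beta ligand, moved further up (2148 and 2196 with CHIR99021, 1349 and 1374 with vehicle, 811 and 812 in normal retina, inhibitor 0.67 ± 0.07).

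Notch1 rose in explants with or without the inhibitor (691 and 640 with CHIR99021, 731 and 715 with vehicle, 325 and 343 in normal retina). Of 19 Notch pathway genes none was called higher and 3 lower with the inhibitor, beside 7.28% higher and 7.86% lower of all genes.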
